A study of Sus scrofa with 8 samples.

Results

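The genes described here are 10 that mark neutrophils or are switched on in acute inflammation: the calgranulins S100A8, S100A9 and S100A12, the chemokines CXCL8 and CXCL2, the interleukin 1 genes IL1A, IL1B and IL1RN, the prostaglandin synthase PTGS2 and the granulocyte colony-stimulating factor receptor CSF3R. They were chosen by symbol, and 7 of the 10 had an Ensembl gene ID paired with the symbol among the 31907 genes counted. S100A9, IL1B and IL1RN had no such pairing and were not analysed here. All 7 passed the low-count filter and were among the 16549 genes tested. The study sequenced messenger RNA from 8 tissue samples of Guizhou minipigs aged 8 months, with 2 libraries in each of 4 groups: mucosa of the normal bladder (MNB, native bladder below), mucosa of the neobladder in the experimental group (MN-Exp), mucosa of the neobladder in the control group (MN-Ctrl) and normal peritoneum (NP). A neobladder is a substitute bladder that a surgeon forms from small intestine, and the series concerns relining it with the animal's own peritoneum. The labels do not say how the control reservoir was lined, how long after surgery tissue was taken, or whether the 2 libraries of a group came from separate animals, so p-values measure only the spread between these samples.

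Neutrophils are short-lived white blood cells that leave the blood at sites of infection or injury. S100A8, S100A9 and S100A12 are small calcium-binding proteins that neutrophils and monocytes hold in large amounts and that stratified epithelium can also make. CXCL8 and CXCL2 draw neutrophils by binding CXC receptors, interleukin 1 alpha is an alarm signal held in epithelial cells and released on damage, and PTGS2 is the inducible enzyme of prostaglandin synthesis. CSF3R carries the signal for neutrophil production and survival. In whole tissue, fewer cells of a type and less RNA per cell cannot be told apart.

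Library totals ran from 7.94 to 11.88 M counts, and levels are counts per M counts (CPM) scaled between libraries by TMM factors, which were 0.839 and 0.449 in the control neobladder libraries and 1.088 to 1.239 in the other 6. At this depth 3 counts in a library equalled 0.224 to 0.562 CPM. Tissue markers followed the labels: the uroplakin UPK2 stood at 987 and 1051 CPM in native bladder, 334 and 1142 CPM in experimental neobladder, 1.96 and 5.62 CPM in control neobladder and 1.12 and 0.802 CPM in peritoneum. The mesothelial factor WT1 stood at 27.7 and 25.3 CPM in peritoneum and had 0, 1 and 1 counts over the native bladder, experimental and control neobladder libraries, so mesothelium was not marked in the experimental neobladder by this gene.

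S100A12 and S100A8, the calgranulins, were higher in native bladder and experimental neobladder than in control neobladder, where both were at or near 0. S100A8 was low in every tissue, at 12.8 CPM or less. S100A12 (ENSSSCG00000032857), at 96225691 to 96227030 on chromosome 4, stood at 58.3 and 29.4 CPM in native bladder, 185.9 and 42.9 CPM in experimental neobladder, 0.218 and 1.69 CPM in control neobladder and 1.63 and 0.802 CPM in peritoneum. The experimental libraries lay above both control libraries, and the lower of them lay between the 2 native bladder libraries. S100A12 was higher in experimental than in control neobladder by a log2 fold change of 7.09 (SE 1.0, adjusted p = 0.000873), higher than in peritoneum by 6.56 (SE 0.939, adjusted p = 0.000807), and lower in control neobladder than in native bladder by -5.71 (SE 0.969, adjusted p = 0.00251). Against native bladder the experimental mucosa differed by 1.38 (SE 0.717, adjusted p = 0.705), and this difference was -0.02 without experimental replicate 1. All adjusted p-values are from edgeR's quasi-likelihood test, Benjamini-Hochberg adjusted over all genes tested, with a threshold of 0.05.

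S100A8 (ENSSSCG00000006590) lies beside it at 96209670 to 96210603, with S100A9 at 96236114 to 96238989, in the cluster of calgranulin genes on chromosome 4. It had 45 and 23 counts in native bladder, 151 and 27 in experimental neobladder, 0 and 0 in control neobladder and 0 and 13 in peritoneum, or 3.64 and 1.72, 12.8 and 2.50, 0 and 0, and 0 and 1.16 CPM. A bound set against 3 counts over the 2 control libraries uses group means and allows for counting error in those libraries only. The experimental mean of 7.65 CPM rests mostly on replicate 1. On this bound experimental neobladder was at least 37-fold higher than control (adjusted p = 0.0177) and native bladder at least 13-fold higher (adjusted p = 0.0431, both by edgeR). Without experimental replicate 1, control replicate 1 or control replicate 2 the first gave adjusted p = 0.0915, 0.0553 and 0.062, and over 14 alternatives the range was 3.29e-08 to 0.0915. The second passed the threshold in 8 of 14 alternatives and gave at most 0.135, which was without native bladder replicate 1. Against native bladder the fitted difference was 1.52 (SE 1.12, adjusted p = 0.862). Between the 2 calgranulins the ratio within a library was similar where both were well counted: S100A12 had 16 and 17.1 counts per S100A8 count in native bladder and 14.5 and 17.1 in experimental neobladder, while the second peritoneum library had 9 counts of S100A12 and 13 of S100A8.

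**Figure D1:**
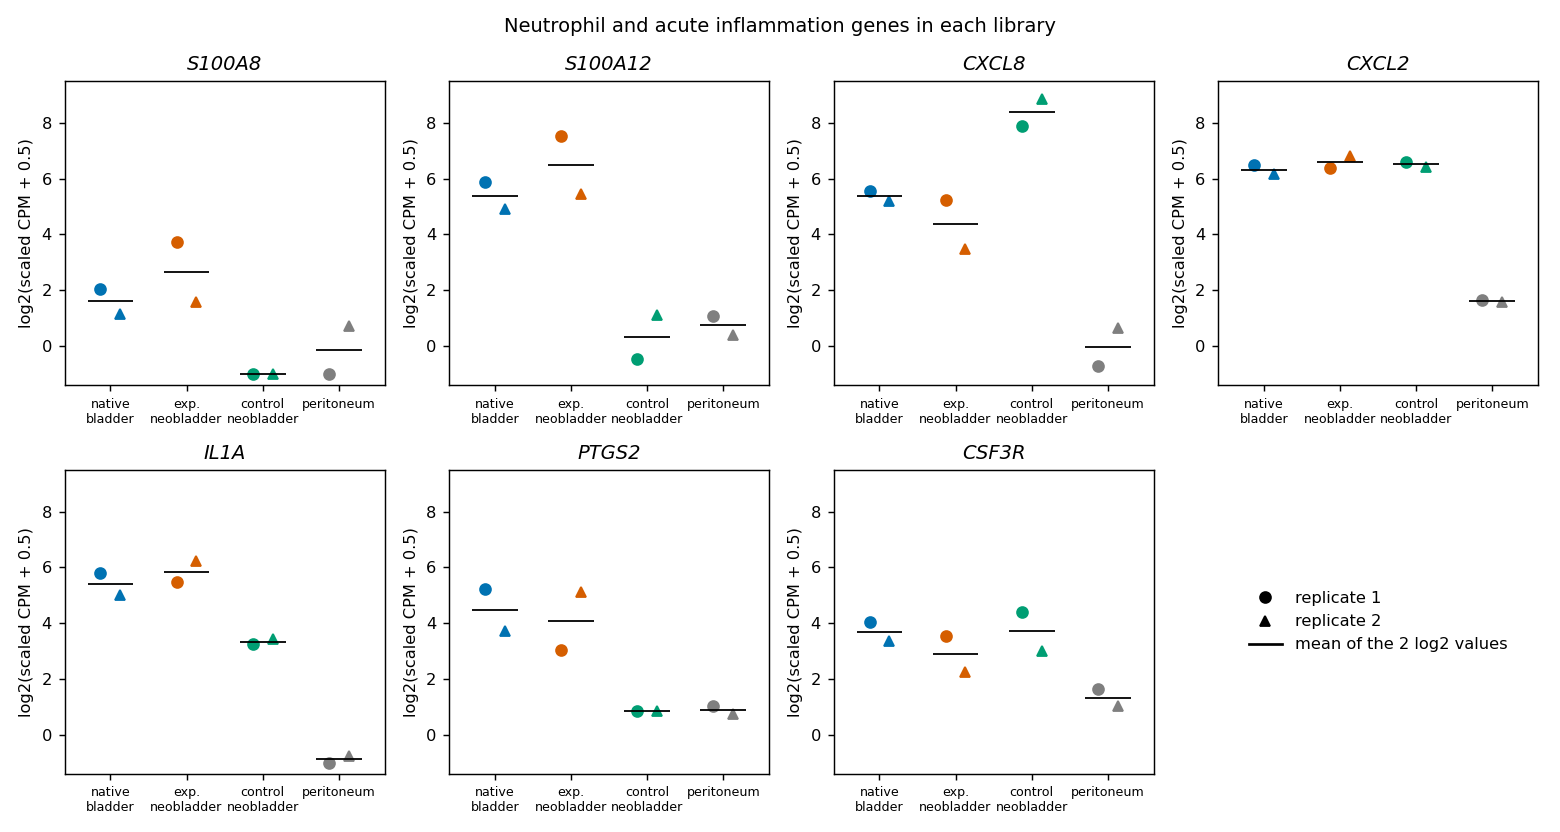
Level of each of the 7 genes in each library as log2(scaled CPM + 0.5), in native bladder, experimental neobladder, control neobladder and peritoneum. Circles and triangles are replicates 1 and 2 and the bar is the mean of the 2 log2 values. CXCL8 is the gene whose control neobladder libraries, at 237.5 and 466.7 CPM, lie above all others, while S100A8 is at 0 there.

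CXCL8 took the other direction. CXCL8 (ENSSSCG00000008953, interleukin 8), at 69932646 to 69935861 on chromosome 8, stood at 46.9 and 36.1 CPM in native bladder, 37.0 and 10.8 CPM in experimental neobladder, 237.5 and 466.7 CPM in control neobladder and 0.102 and 1.07 CPM in peritoneum. The groups lay in the order control neobladder, native bladder, experimental neobladder, peritoneum, with the middle pair overlapping. Experimental neobladder was lower than control by a log2 fold change of -3.88 (SE 0.74, adjusted p = 0.00472, edgeR), and 14 alternatives gave adjusted p from 3.94e-12 to 0.0491. Control neobladder was higher than native bladder by 3.09 (SE 0.712, adjusted p = 0.0124), and peritoneum was lower than native bladder by -6.07 (SE 0.895, adjusted p = 0.00109). The control against native bladder call rested on the scaling and on single libraries: it gave adjusted p = 0.059 with a log2 fold change of 2.06 on library totals alone, and 0.0782, 0.0983 and 0.074 without native bladder replicate 1, native bladder replicate 2 and control replicate 2, in a range of 3.26e-08 to 0.0983 over 14 alternatives. Between experimental neobladder and native bladder the difference of -0.80 (SE 0.668) did not pass (adjusted p = 0.899).

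CXCL2 (ENSSSCG00000008959), in the same chemokine cluster at 70157253 to 70159145, was low in peritoneum and not called between any 2 of the 3 mucosae. It stood at 88.6 and 71.4 CPM in native bladder, 83.1 and 112.5 CPM in experimental neobladder, 95.8 and 85.6 CPM in control neobladder and 2.65 and 2.50 CPM in peritoneum. Libraries of the 3 mucosae overlapped in every pairing on this scale. On library totals alone the control libraries, at 80.3 and 38.5 CPM, lay below those of native bladder (102.7 and 86.6 CPM) and experimental neobladder (95.3 and 122.3 CPM). Experimental neobladder was higher than peritoneum by a log2 fold change of 5.24 (SE 0.42, adjusted p = 3.73e-05), control neobladder by 5.14 (SE 0.419, adjusted p = 2.25e-05), and peritoneum was lower than native bladder by -4.95 (SE 0.416, adjusted p = 5.94e-05, all by edgeR). The differences among the 3 mucosae were 0.11 (SE 0.342) for experimental minus control, 0.29 (SE 0.341) for experimental minus native and 0.18 (SE 0.342) for control minus native. On library totals alone they were 0.87, 0.20 and -0.67, with adjusted p = 0.182, 1 and 0.28 by edgeR. RefSeq places other chemokine genes between CXCL8 and CXCL2, among them PPBP and AMCF-II, and how reads matching more than 1 gene were counted is not given in the sources used here, so reads of closely similar copies could be split or lost.

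IL1A (ENSSSCG00000008090), at 43718320 to 43731668 on chromosome 3 next to IL1B, parted the 4 groups into 3 levels. It stood at 55.4 and 31.5 CPM in native bladder and 44.1 and 73.7 CPM in experimental neobladder, 8.93 and 10.3 CPM in control neobladder, and had 0 and 1 counts in peritoneum. Both control neobladder libraries were below all 4 libraries of native bladder and experimental neobladder and above both of peritoneum. Experimental neobladder was higher than control by a log2 fold change of 2.62 (SE 0.465, adjusted p = 0.00325), a call that held in all 14 alternatives (adjusted p from 2.35e-06 to 0.0327). Control neobladder was lower than native bladder by -2.18 (SE 0.459, adjusted p = 0.00795), with adjusted p = 0.0829 without native bladder replicate 1 and a range of 8.62e-05 to 0.0829. Against the single count in peritoneum, the ratio was 1230 for experimental neobladder (exact 95% interval 219 to 48400), 198 for control neobladder (35 to 7900) and 904 for native bladder (162 to 35700), intervals that cover counting error only. The tests gave adjusted p = 3.73e-05, 9.11e-05 and 5.73e-05 by edgeR. Experimental neobladder and native bladder differed by 0.44 (SE 0.43, adjusted p = 0.933).

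PTGS2 (ENSSSCG00000015579, cyclooxygenase 2), at 127850164 to 127858866 on chromosome 9, stood at 36.5 and 12.6 CPM in native bladder, 7.80 and 34.3 CPM in experimental neobladder, 1.31 and 1.31 CPM in control neobladder and 1.53 and 1.16 CPM in peritoneum. Native bladder and experimental neobladder overlapped, and every library of both lay above every library of the other 2 tissues. PTGS2 was higher in experimental than in control neobladder by a log2 fold change of 3.99 (SE 0.816, adjusted p = 0.00668) and lower in control neobladder than in native bladder by -4.22 (SE 0.819, adjusted p = 0.0052, edgeR). The first gave adjusted p = 0.0595, 0.0518 and 0.0707 without experimental replicate 2, control replicate 1 and control replicate 2 (range over 14 alternatives 1.76e-09 to 0.0707), and the second 0.0616 without control replicate 2 (range 1.46e-10 to 0.0616). Experimental neobladder was higher than peritoneum by 3.96 (SE 0.79, adjusted p = 0.00512), and peritoneum lower than native bladder by -4.19 (SE 0.794, adjusted p = 0.00472). Experimental neobladder minus native bladder was -0.22 (SE 0.661, adjusted p = 0.999), and turned to 0.50 without experimental replicate 1 and 0.74 without native bladder replicate 1.

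CSF3R (ENSSSCG00000025795), at 92550159 to 92565798 on chromosome 6, is found mainly on granulocytes, monocytes and their precursors. It stood at 15.9 and 9.64 CPM in native bladder, 11.2 and 4.27 CPM in experimental neobladder, 20.8 and 7.50 CPM in control neobladder and 2.65 and 1.52 CPM in peritoneum. The 3 mucosae overlapped, and all 6 of their libraries lay above both of peritoneum. It was higher in control neobladder than in peritoneum by a log2 fold change of 2.78 (SE 0.684, adjusted p = 0.00891) and lower in peritoneum than in native bladder by -2.62 (SE 0.679, adjusted p = 0.0207, edgeR). On library totals alone these gave adjusted p = 0.0734 and 0.0685. The second also failed without native bladder replicate 1, peritoneum replicate 1 or peritoneum replicate 2 (0.129, 0.0555 and 0.12, range 6.16e-05 to 0.129), and the first without peritoneum replicate 2 (0.0614, range 1.02e-05 to 0.0734). Experimental minus control neobladder was -0.88 (SE 0.625, adjusted p = 0.336) and experimental minus native bladder -0.72 (SE 0.621, adjusted p = 0.905).

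The comparison of experimental with control neobladder asked how the reservoir of the experimental group differed from the control reservoir. S100A8, S100A12, IL1A and PTGS2 were higher and CXCL8 lower in experimental mucosa, while CXCL2 and CSF3R were not called. This is 4 higher and 1 lower of 7, where 21.7% of all genes tested were called, 10.4% higher and 11.3% lower. The same 4 and 1 had groups that did not overlap, as 34.1% of all genes did with experimental higher and 26.2% with it lower, and the members' median log2 fold change was 2.62 against 0.11 over all genes. The count called was 3 of 7 without control replicate 1 or control replicate 2. On library totals alone, where the median of all genes moved to 0.89, the members' calls stayed at 4 higher and 1 lower, but 77.1% of all calls were higher against 48% on the TMM scale.

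Experimental neobladder and native bladder, compared to ask how near the new mucosa was to that of the organ it stands in for, gave no member called of 7, by edgeR or DESeq2 and with 0 at an unadjusted p under 0.05. Over all genes 0.0967% were called in this comparison, 0.0423% higher and 0.0544% lower, so few genes of any kind passed. Libraries of the 2 groups overlapped for all 7 members, while 24.8% of all genes had both experimental libraries above and 23.7% both below. The fitted differences ran from -0.80 for CXCL8 to 1.52 for S100A8, with standard errors of 0.341 to 1.12, so the missing calls do not show that the 2 mucosae were alike.

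Control neobladder against native bladder gave 1 member higher, CXCL8, and 4 lower, S100A8, S100A12, IL1A and PTGS2, where 22.3% of all genes were called, 11.2% higher and 11.1% lower. These 5 did not overlap between the groups, as 27.5% of all genes did with control higher and 35.2% with it lower. Without native bladder replicate 1 or 2 this count of 5 was 2 and 3, and without control replicate 2 it was 2. Scaling mattered here too: the median of all genes was -0.11 on the TMM scale and -0.97 on library totals alone, and 50.4% and 18.7% of the calls were higher. This comparison shares the control libraries with that of experimental and control neobladder, so their calls are not independent.

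Peritoneum, the tissue used for the lining, was the lowest or near the lowest for every member. Experimental neobladder was higher than peritoneum for S100A12, CXCL8, CXCL2, IL1A and PTGS2, 5 of 7, where 24.2% of all genes were called and 12.4% were higher, and none was lower (11.8% of all genes). S100A8 and CSF3R were the other two, with log2 differences of 3.66 and 1.90 and adjusted p = 0.0633 and 0.0637 by edgeR. DESeq2 called all 7, with adjusted p = 0.0213 for S100A8 and 0.0343 for CSF3R, in ranges of 0.000257 to 0.412 and 0.00616 to 0.392. For all 7 both experimental libraries lay above both of peritoneum, as they did for 35.4% of all genes, with both below for 35.9%. Control neobladder was higher than peritoneum for CXCL8, CXCL2, IL1A and CSF3R, 4 of 7, and lower for 0, where 42.3% of all genes were called, 21.6% higher and 20.6% lower. These 4 did not overlap with peritoneum, as 32.2% of all genes did with control higher and 37.4% with it lower. Peritoneum was lower than native bladder for 6 of 7, all but S100A8, and higher for 0, where 21.1% of all genes were called, 11.1% lower and 9.93% higher. All 7 had both peritoneum libraries below both of native bladder, as 35.3% of all genes did, with 34.7% the other way. These 3 comparisons share the peritoneum libraries.

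**Figure D2:**
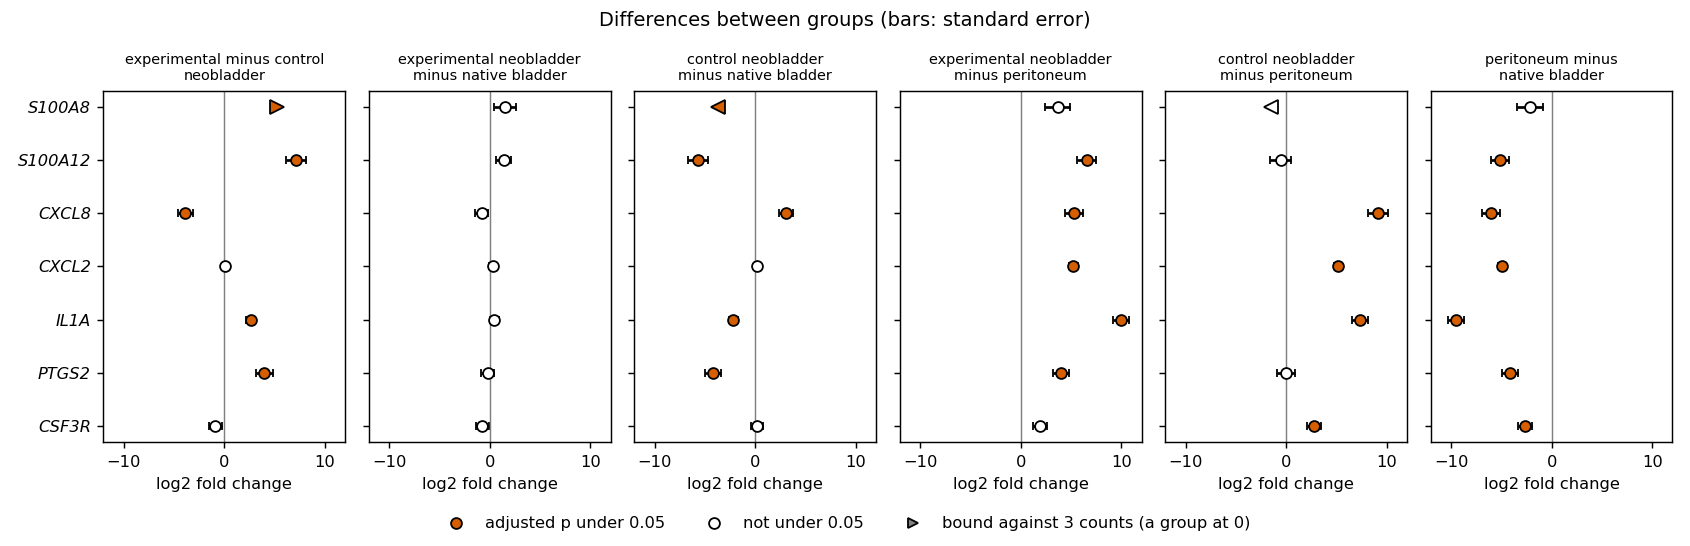
Log2 fold change of each gene in the 6 comparisons, with its standard error as a bar. Filled symbols have an adjusted p under 0.05 by edgeR, and triangles are bounds against 3 counts where a group had 0 counts of S100A8. No symbol is filled for experimental neobladder minus native bladder, and 5 are filled for experimental minus control neobladder.

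The members differed between replicates in 1 shared direction in native bladder but not in experimental neobladder. All 7 members were higher in replicate 1 than in replicate 2 of native bladder, by 1.24-fold for CXCL2 to 2.89-fold for PTGS2. In experimental neobladder, replicate 1 was higher for S100A8 by 5.11-fold, S100A12 by 4.33-fold, CXCL8 by 3.44-fold and CSF3R by 2.62-fold. Replicate 2 was higher for PTGS2 by 4.4-fold, IL1A by 1.67-fold and CXCL2 by 1.35-fold. These are single libraries, and the split between the genes has no test.

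Other genes that neutrophils use were mostly lower in experimental than in control neobladder, unlike the calgranulins. Of 36 such genes listed, 25 had an ID and 21 were tested: 2 were higher, 13 lower and 6 not called, with a median log2 fold change of -1.79 (all genes 0.11). The share called lower was 61.9%, against 11.3% of all genes. ALOX5 and its partner ALOX5AP, which start leukotriene synthesis, were lower by -1.95 (SE 0.367, adjusted p = 0.00426) and -3.25 (SE 0.589, adjusted p = 0.0036). NCF1, a subunit of the phagocyte oxidase, averaged 24.7 ± 6.26 CPM in experimental mucosa against 84.5 ± 11.7 CPM in the control (SD, n = 2), a log2 difference of -1.77 (SE 0.356, adjusted p = 0.00601). BPI, a bactericidal protein of neutrophil granules, had 3 counts over the experimental libraries, 3 over native bladder and 2 over peritoneum. It stood at 942.7 and 149.9 CPM in the control libraries (adjusted p = 0.00013 against experimental by edgeR), and which cells made it was not tested. FGR, a kinase of myeloid cells, was lower too, at 19.2 and 8.995 against 38.0 and 48.3 CPM (adjusted p = 0.0375).

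The 2 that rose were MMP9, a gelatinase stored in neutrophil granules, at 454 and 198 CPM in experimental against 69.6 and 32.2 CPM in control mucosa (log2 fold change 2.68, SE 0.532, adjusted p = 0.00587), and the urokinase receptor PLAUR, at 217 ± 132 against 36.2 ± 1.64 CPM (2.58, SE 0.744, adjusted p = 0.0328). Among granule genes MPO, MMP8, PGLYRP1 and PROK2 were too low to be tested. LTF, ELANE and CD177 were tested and did not follow BPI. They were not called between the neobladders, with log2 differences of 0.00042, -0.35 and 0.70. The count of lower genes depended on scaling and on 1 library: it was 4 on library totals alone and 3 without experimental replicate 2, and 9 to 12 when any other library was left out. In control neobladder against native bladder 9 of the 21 were higher and 1 lower, where 11.2% and 11.1% of all genes were. The number higher was 3 on library totals alone, where 18.7% of the calls over all genes were higher against 50.4% on the TMM scale. None of the 21 was called between experimental neobladder and native bladder by edgeR, where only 0.0967% of all genes were. Of the 21, 3 had an unadjusted p under 0.05 and 1 was called by DESeq2. MMP9 stood at 33.8 ± 4.45 CPM in native bladder (log2 difference 3.27, SE 0.545, adjusted p = 0.0676 by edgeR).

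Few genes of the interleukin 1 receptor and NF-kB pathway were called between the neobladders. Of 28 tested, 3 were higher, 2 lower and 23 not called in experimental against control mucosa, with a median of 0.32. This is 17.9% called, no more than the 21.7% of all genes. The receptors IL1R1, for interleukin 1, and TLR4, for bacterial lipopolysaccharide, stood at 58.0 ± 4.25 against 15.3 ± 9.96 CPM (log2 fold change 1.91, SE 0.47, adjusted p = 0.0167) and 213.8 ± 18.1 against 28.8 ± 6.83 CPM (2.89, SE 0.408, adjusted p = 0.000839). The NF-kB cofactor NFKBIZ was the third (1.64, adjusted p = 0.0413). PYCARD, the inflammasome adaptor, was lower at 15.1 ± 0.985 against 907.5 ± 688 CPM (-5.91, SE 0.707, adjusted p = 0.000341), and the antioxidant enzyme SOD2 at 105.3 ± 5.12 against 341 ± 4.78 CPM (-1.70, SE 0.38, adjusted p = 0.0105). NFKBIA, the inhibitor that NF-kB itself induces and the most abundant gene of the list, stood at 874 ± 266 and 736 ± 56.4 CPM (adjusted p = 0.731). The counts moved with the libraries: 1 higher and 1 lower without either experimental replicate, and 6 and 5 without control replicate 1. No gene of this list was called between experimental neobladder and native bladder by edgeR, where only 0.0967% of all genes were (3 at an unadjusted p under 0.05, 3 called by DESeq2). The smallest p-values there belonged to IL1RAP, the partner chain of the interleukin 1 receptor, at 6.19 and 6.398 CPM in experimental neobladder against 27.7 and 20.02 CPM in native bladder (adjusted p = 0.215), to the bacterial lipoprotein receptor TLR2 (adjusted p = 0.281) and to the cytokine IL18 (adjusted p = 0.292). ICAM1, the endothelial ligand that neutrophils grip, was the fourth (adjusted p = 0.797).

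Genes of neutrophil recruitment and of prostaglandin synthesis also parted. Of 20 tested, 6 were higher and 4 lower in experimental than in control mucosa, with a median of -0.06. This is 30% higher and 20% lower, where 10.4% and 11.3% of all genes were. Those higher included PLA2G4A, which frees arachidonic acid for prostaglandin synthesis, at 41.8 ± 9.81 against 8.91 ± 1.73 CPM (log2 fold change 2.22, SE 0.405, adjusted p = 0.0036), and the prostaglandin E synthase PTGES, at 541.8 ± 51.5 against 161 ± 64.2 CPM (1.75, SE 0.438, adjusted p = 0.0178). PLA2G4A and PTGES act before and after PTGS2 in the same pathway. The other cyclooxygenase gene, PTGS1, was higher too, at 72.1 ± 5.02 against 17.9 ± 11.2 CPM (2.0, SE 0.556, adjusted p = 0.0285 by edgeR). SELP, the endothelial selectin on which neutrophils roll, was higher at 14.3 ± 0.719 against 2.14 ± 1.44 CPM (2.67, SE 0.493, adjusted p = 0.00394). The prostaglandin E2 receptor PTGER2 was lower at 3.53 ± 1.84 against 30.7 ± 11.7 CPM (-3.12, SE 0.531, adjusted p = 0.00254), and so was PPBP, a neutrophil-attracting chemokine also stored in platelets, at 1.91 ± 0.184 against 71.5 ± 26.7 CPM (-5.22, SE 0.536, adjusted p = 0.000146). IL22, a cytokine of mucosal lymphocytes, had only 5 counts over the 2 experimental libraries (0.339 and 0.0927 CPM), near or below 3 counts a library. It stood at 2.58 ± 1.65 CPM in control neobladder and 4.82 ± 0.266 CPM in native bladder. IL17A, which drives mucosal neutrophil responses, had 0.763 and 0.186 CPM in experimental neobladder, 1.31 and 2.25 CPM in control and 6.30 and 5.16 CPM in native bladder, and the difference of experimental from native bladder was not called (adjusted p = 0.277). Nor was that of IL22 (0.197), the chemokine CCL3L1 (0.333) or the cochaperone PTGES3 (0.491). Without experimental replicate 1 or 2 the number higher was 3 and 2, and the number lower was 2 without experimental replicate 2. No gene of the list was called between experimental neobladder and native bladder by edgeR, where only 0.0967% of all genes were (4 at an unadjusted p under 0.05, 2 called by DESeq2).

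**Figure D3:**
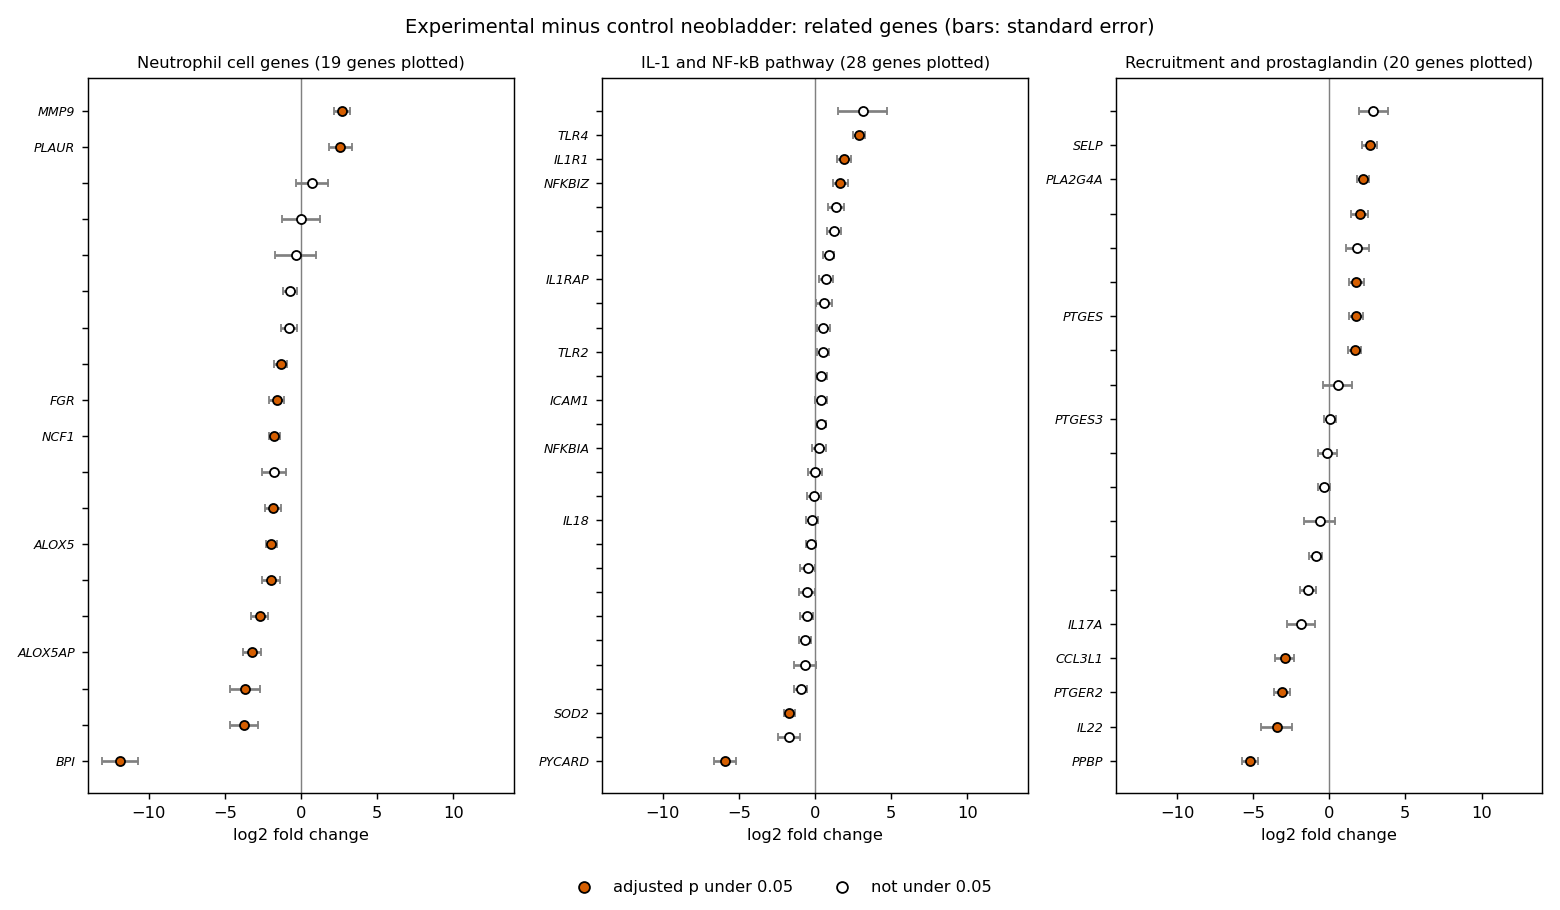
Log2 fold change of experimental minus control neobladder for tested genes of the 3 related lists (19, 28 and 20 plotted), with the standard error as a bar and a label for most genes named in the text. Filled points have an adjusted p under 0.05 by edgeR. In the neutrophil list 11 filled points lie below 0 and 2, MMP9 and PLAUR, above.

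Markers of other cells that can make these proteins also differed between the tissues. The summed level of 9 stratified epithelium genes was 1429 and 1844 CPM in the native bladder libraries, 3568 to 6499 CPM in experimental neobladder, 48.7 to 50.3 CPM in control neobladder and 8.76 to 11.5 CPM in peritoneum. Single genes carried much of this sum. LY6D gave 61.69% and 66.89% of it in native bladder, and IVL 57.66% and 70.28% in experimental neobladder. In control neobladder TGM3 gave 65.15% in replicate 1 and IVL 39.23% in replicate 2. Of 8 tested, 5 were higher in experimental than in control neobladder and 0 lower, and the cornified envelope gene IVL stood at 2057 and 4567 against 7.62 and 19.1 CPM. The summed level of 15 macrophage and monocyte genes was 3021 to 3646 CPM in native bladder, 3042 to 3407 CPM in experimental neobladder, 6504 to 12570 CPM in control neobladder and 2803 to 3187 CPM in peritoneum, with LYZ at 0 in all 8 libraries. CD74 gave 31.46% to 51.65% of the macrophage and monocyte sum over the 8 libraries. Of 13 macrophage genes tested, 1 was higher and 5 lower in experimental than in control neobladder. This is 7.69% and 38.5%, where 10.4% and 11.3% of all genes were. The complement genes C1QA, C1QB and C1QC and the receptor adaptors TYROBP and FCER1G were lower, while VSIG4 was higher (log2 fold change 1.48, adjusted p = 0.0312 by edgeR) and CD14 and CD163 were not called, at 1.12 and 0.96. The 25 neutrophil cell genes summed to 611 to 1299, 784 to 963, 1437 to 1924 and 268 to 289.5 CPM in the same order of tissues. This sum rests on few genes: BPI gave 942.7 of the 1924 CPM in control replicate 1, and PLAUR 880.7 of the 1299 CPM in native bladder replicate 1. Without BPI the control libraries stood at 981.5 and 1287 CPM, below native bladder replicate 1, and without BPI and PLAUR at 944 and 1252 CPM against at most 839 CPM elsewhere. All these sums are on the TMM scale, whose factors of 0.839 and 0.449 raise control levels relative to library totals. The order of the neutrophil sums depends on this scale. The lining itself differed too. All 7 urothelial genes tested were higher in experimental than in control neobladder (10.4% of all genes were), summing to 4089 to 8005 against 65.3 to 149.5 CPM. All 7 ileal epithelial genes were lower (11.3% of all genes were), at 33.8 to 46.5 against 38860 to 161000 CPM. All 7 urothelial genes and 5 of 8 stratified epithelial genes were thus higher in the same comparison as S100A8, S100A12, IL1A and PTGS2. Ileal epithelial genes, most neutrophil genes tested and 5 macrophage genes were lower, as CXCL8 was. The part of any of these cells in the members' levels was not tested.

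**Figure D4:**
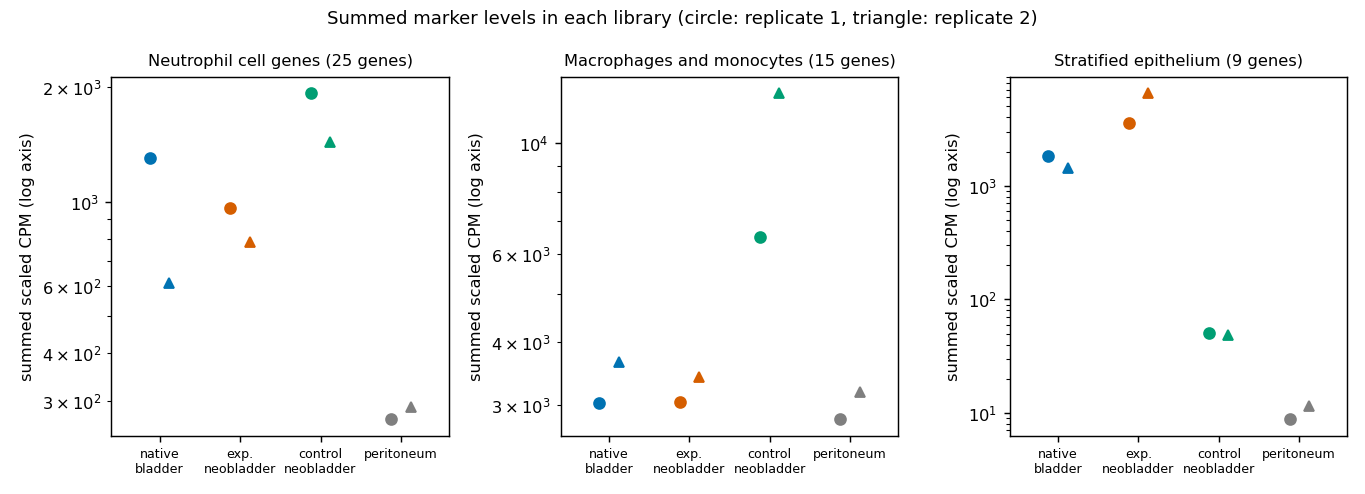
Summed scaled CPM of neutrophil, macrophage and monocyte, and stratified epithelium genes in each library, on log axes. On the TMM scale the control neobladder libraries are the highest for the neutrophil and macrophage sums, at 1437 to 1924 and 6504 to 12570 CPM. The order of the neutrophil sums depends on this scale, whose factors were 0.839 and 0.449 in the control libraries. Without BPI the control neutrophil sums are 981.5 and 1287 CPM, with native bladder replicate 1 above both. The experimental neobladder libraries are the highest for stratified epithelium, at 3568 to 6499 CPM.

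Other S100 genes gave a wider view of the family. Of 6 tested, S100A1, S100A4 and S100A11 were higher and S100A10 and the intestinal calcium carrier S100G lower in experimental than in control neobladder, and S100A6 was not called. This is 50% higher and 33.3% lower, where 10.4% and 11.3% of all genes were. S100A4 had 437 and 84.1 CPM in the experimental libraries against 8.28 and 53.4 CPM in the control libraries (log2 fold change 3.09, SE 0.887, adjusted p = 0.0321), with its higher library the same as for S100A8 and S100A12. None of the 6 was called between experimental neobladder and native bladder by edgeR, where only 0.0967% of all genes were (1 at an unadjusted p under 0.05, 0 by DESeq2).

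The genes most like each member were sought by Pearson correlation of log2 CPM over the 8 libraries, among 9864 or 9865 genes with a symbol and a mean of at least 5 CPM. The 8 points fall into 4 tissues, so these values mainly describe differences between tissues, and no test was made. IL1A was most like TMEM79 (r = 0.996), which stood at 131 CPM in native bladder, 208 CPM in experimental neobladder, 17.4 CPM in control neobladder and 0.0955 CPM in peritoneum as group means. CXCL2 was most like BSPRY and the tight junction gene CLDN7 (both r = 0.997), which have 0.961 and 3.50 CPM in peritoneum. PTGS2 had among its 3 nearest the AP-1 factor FOSL1 (r = 0.981), at 146, 49.1, 2.17 and 1.37 CPM in the same order of tissues. S100A12 was most like LRP11 (r = 0.983), CXCL8 most like FH (r = 0.993) with the leukocyte gene CYTIP next (r = 0.989), CSF3R most like TRAPPC13 (r = 0.982) and S100A8 most like MAN1A2 (r = 0.947). Among the members themselves, r was highest for CXCL2 with IL1A (0.949) and for S100A8 with S100A12 (0.881), and lowest for S100A8 with CXCL8 (-0.0228).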

How the data were processed

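Each sample's deposited file gives unnormalized read counts by Ensembl gene ID. The authors used HTSeq 0.11.1, HISAT2 and Trim Galore with build Sscrofa11.1, per the submitters' processing notes. Settings, strand option and annotation release are not given in the sources used here. Smart-seq2 complementary DNA was sequenced on an Illumina instrument, per the labels' protocols. Symbols came from a table of Ensembl IDs, and positions from RefSeq's table for Sscrofa11.1.

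Counts were tested with edgeR 4.0.16 (limma 3.58.1, R 4.3.3): filterByExpr over the 4 groups, TMM scaling, and 1 robust quasi-likelihood fit of all 8 libraries (4 residual degrees of freedom, biological coefficient of variation 0.382). Standard errors are the absolute unshrunken log2 fold change divided by the root of F. Results were recomputed on library totals, without the filter, with DESeq2 1.42.0 or only its size factors, with 2 groups alone, with replicate number as a block, and leaving out each library. On simulated counts for experimental against control neobladder with 15946 genes tested, 48 of 100 genes changed 4-fold and 99 of 100 changed 16-fold were called, with 3 false calls. The simulation gave all libraries 1 expression profile and 1 dispersion, and changed 200 genes that were not of low count. It does not measure accuracy at the unlike scaling factors or low counts seen here.

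The genes and lists were chosen with earlier results of these data known. Named were all members and, per related list, up to 4 genes with the smallest p in experimental against control neobladder and against native bladder, and the most abundant. NFKBIZ, IVL, the S100 and macrophage genes and genes too low to test were named outside this rule, after their values were seen. So were WT1, UPK2, LTF, ELANE, CD177, PTGS1, LY6D and TGM3, and sums without BPI and PLAUR were added then too. Values of 2 genes of the neutrophil list are not reported here and not plotted, but both are in its counts.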

Additional observations from a re-analysis of the deposited data

How the results depend on the processing

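With 2 libraries a group, direction held better than significance for called fold changes, which were picked as differing from 0. For those not called, direction held worse. Of 25 called fold changes of members, 8 lost their call in at least 1 alternative, 24 times in all. Of those not called, 3 gained a call, 12 times in all, and 9 turned sign, 18 times in all. No called value turned sign. For CXCL2, experimental minus control was 0.874 on library totals, -0.00914 with DESeq2's size factors, -0.00929 with DESeq2 and -0.109 to 0.333 with each library left out, and control minus native was -0.673 on library totals. For PTGS2, control minus peritoneum was 0.0519 with the size factors, 0.0532 with DESeq2, 0.0117 without the low-count filter and -0.16 to 0.186 with a library left out, and experimental minus native -1.65 to 0.743. CSF3R in control minus native was -0.537 on library totals and -0.787 to 0.703 with a library left out, and -1.72 to 0.072 in experimental minus control. With a library left out, experimental minus native was -0.0827 to 2.26 for S100A8 and -0.018 to 2.09 for S100A12, and control minus peritoneum -2.38 to 0.491 for S100A12. The cause was not tested.

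Leaving out each library in turn gave 3 to 5 members called for experimental against control neobladder, 0 for experimental against native bladder, 2 to 5 for control against native bladder, 5 to 7 and 3 to 4 for experimental and control against peritoneum, and 5 to 6 for peritoneum against native bladder. For related genes in experimental against control neobladder it gave 1 to 2 higher and 3 to 12 lower neutrophil genes, 1 to 6 higher and 1 to 5 lower interleukin 1 and NF-kB genes, and 2 to 7 higher and 2 to 4 lower recruitment and prostaglandin genes. Neutrophil genes in control neobladder against native bladder, repeated after the data had been seen, gave 4 to 10 higher and 0 to 1 lower. On library totals alone 4 neutrophil genes were lower, 5 interleukin 1 and NF-kB genes higher and 1 lower, and 3 neutrophil genes higher in control neobladder than native bladder. Without the filter 5 interleukin 1 and NF-kB genes were higher, and 2 neutrophil genes were lower in control neobladder than native bladder. With only the 2 groups compared, 1 interleukin 1 and NF-kB gene was higher and 1 lower, and 2 recruitment and prostaglandin genes were higher.

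Replicate numbers are not said to pair animals, and differences between replicates correlated between groups at -0.0795 to 0.0911. With a replicate block, 5 members were called for experimental against control neobladder, S100A8 in control minus native bladder gave adjusted p = 0.0509 and CSF3R in experimental minus peritoneum 0.0269, with no other member's call changed. The ratio of IL1RN to IL1B and the share of S100A12 among 3 calgranulins were planned and not run, since S100A9, IL1B and IL1RN were not analysed here. Without peritoneum replicate 2, S100A8 was at 0 in both groups of control minus peritoneum and gave no value.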
